A study of Homo sapiens with 2 samples.

Results

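NEDD9, its relatives among the CAS scaffolds, and the CRK, DOCK and ELMO proteins that link these scaffolds to the small GTPase RAC1 were followed in cells of OECM1, a line grown from a head and neck tumour, with and without a let-7i vector. The members were taken by gene symbol: NEDD9, BCAR1, EFS, CASS4, CRK, DOCK1, DOCK3, DOCK4, DOCK5 and ELMO2, which are 10 genes. Of these, 9 had a probe set that the platform annotation assigns to them alone, out of 19775 genes so named, and together they had 33 probe sets. CRK had none and was not analysed here. The let-7i cells were OECM1 stably transfected with pmCherry-let7i, a vector that carries the microRNA let-7i. The control was OECM1 transfected with the empty pmR-mCherry vector, so both groups carry an mCherry vector, and both were grown in RPMI with fetal bovine serum. Each group was 1 array, so no difference below has a replicate check and no p-value was computed. Whether the transfected cells were 1 clone or a pool, and which promoter drives the insert, is not given in the labels.

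CAS proteins are scaffolds without enzyme activity. Once SRC and focal adhesion kinase phosphorylate their tyrosines at integrin contacts, the adaptor CRK binds there and brings in DOCK proteins, which, with ELMO as a partner, load RAC1 with GTP and drive membrane protrusion. NEDD9 is the CAS family member best known for promoting migration and invasion of tumour cells, and NEDD9 and DOCK3 have been reported as let-7i targets on the way to RAC1 in head and neck cancer cells. The comparison asks whether the transcripts of this path differ once let-7i is expressed.

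The microRNA in the vector is shown first, because its seed (bases 2 to 8, in capitals in the mature forms) is the stretch that mainly determines which messages it pairs with. The sequences are those of RefSeq (GRCh38.p14), written 5′ to 3′. In the hairpin, which lies at chr12:62603686-62603769 on the plus strand, the capitals mark the mature let-7i-5p.
MIRLET7I hairpin: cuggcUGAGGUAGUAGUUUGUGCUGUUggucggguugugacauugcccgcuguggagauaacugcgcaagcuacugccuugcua
let-7i-5p: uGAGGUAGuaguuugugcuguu
let-7i-3p: cUGCGCAAgcuacugccuugcu
let-7g-5p: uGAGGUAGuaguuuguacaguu
let-7a-5p: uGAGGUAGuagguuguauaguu
miR-98-5p: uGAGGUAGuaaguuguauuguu
The seed GAGGUAG of let-7i-5p is shared by 11 of the 2370 mature microRNA names in that table, the let-7 family forms and miR-98-5p among them. Over their 22 bases, let-7g-5p is unlike let-7i-5p at 2 positions, and let-7a-5p and miR-98-5p at 4 each. A message pairs with this seed through CUACCUC. The 3p strand has another seed, UGCGCAA. Mature microRNAs are not read by this kind of array, so the level of let-7i itself could not check the labels, and target sites in the members' messages were not analysed here.

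Signals are MAS5 intensities on a linear scale, as the authors deposited them. The 2 arrays had a mean of 499.9 each between their 2nd and 98th percentiles. A probe set counted as measured when it reached the median signal of its array, the floor, which was 79.5 with let-7i and 88.0 with the empty vector. Ratios are let-7i over empty vector on the log2 scale, centred to a median of 0 over the 11140 genes that both arrays measured. The error given with a ratio is the spread of 1 probe set, an SD taken from pairs of probe sets for the same gene. With the pairs split by signal into 4 classes of equal size, that SD ran from 0.34 in the dimmest class to 0.15 in the brightest, and it covers probe noise and not variation between cultures. Among epithelial markers with a probe set of their own, 5 of 7 were above the floor (KRT18, KRT19, EPCAM, CDH1 and SFN), while the basal keratins KRT5 and KRT14 were below it on both arrays. The summed signal of the 7 was 56481 with let-7i and 67295 with the empty vector. Of the 7 fibroblast markers 2 were above the floor (COL1A1 and DCN), with a summed signal of 883 with let-7i and 641 with the empty vector. DCN alone had 322 with let-7i and 163 with the empty vector, and COL1A1 had 415 and 346. Each sum in this paragraph also counts the markers below the floor. Of 5 leukocyte markers 2 were above it (CD3E and ITGAM), with a sum of 322 with let-7i and 356 with the empty vector. Of 5 endothelial markers 1 was (PECAM1), with a sum of 474 with let-7i and 424 with the empty vector. The part of these shifts in the results below was not tested, and fewer cells that express a gene and less RNA per cell cannot be told apart in such bulk RNA.

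NEDD9 and DOCK1 were lower with let-7i, DOCK4 was higher, and BCAR1, DOCK5 and ELMO2 differed little in their brightest probe sets. EFS, CASS4 and DOCK3 stayed below the floor on both arrays in every probe set. By its brightest probe set, 2 of the 6 measured members were at least 1.5-fold lower, against 5.93% of the 12284 genes that reached the floor on either array, and 1 was at least 1.5-fold higher, against 4.18%. At a 2-fold threshold no member was lower (background 1.38%) and 1 was higher (background 1.06%). The median log2 ratio of the 6 was 0.15, and that of all genes above the floor was -0.01. The 6 ratios ran from -0.95 to 1.05, and the median was -0.03 when the probe sets of each gene were averaged, so it gives no direction for the group. Of the 33 probe sets, 17 were measured on both arrays and 16 on neither, and none was measured on 1 array only. Of the 17, 10 were lower with let-7i and 7 higher, and 4 of the 10 belong to NEDD9. The like share over all probe sets was not counted. By brightest probe set, 49.8% of all genes above the floor were lower and 48.7% higher. Among the 17, 7 were at least 1.5-fold lower, where 5.85% of all measured probe sets were, and 1 was at least 1.5-fold higher, where 3.72% were. At 2-fold, 1 was lower (background 1.11%) and 1 higher (background 0.798%). The 7 that were at least 1.5-fold lower belong to 3 genes, 4 of them to NEDD9, and probe sets of a gene read the same RNA and are not replicates.

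**Figure D1:**
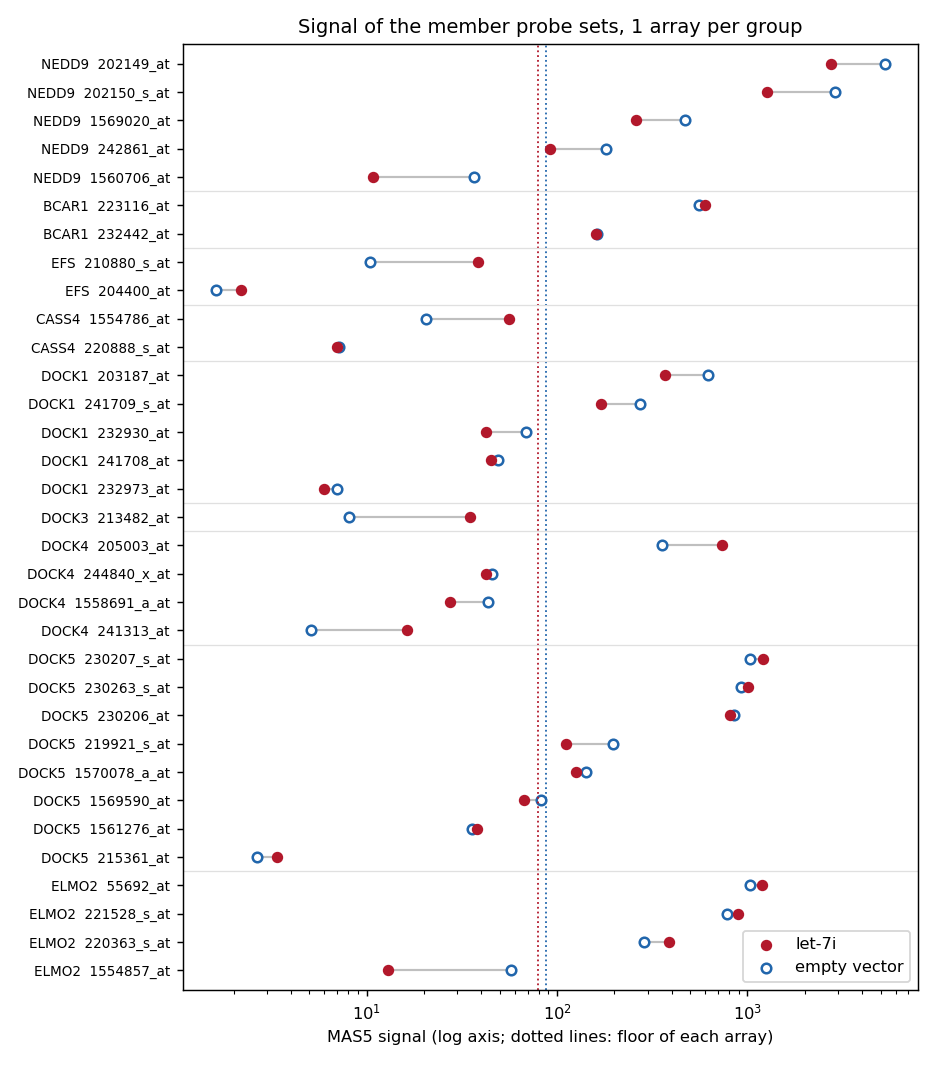
MAS5 signal (log axis) of each of the 33 member probe sets with let-7i (filled) and with the empty vector (open), 1 array each; the dotted lines mark the floors of 79.5 (let-7i) and 88.0 (empty vector). All 4 measured NEDD9 pairs lie with let-7i to the left, the measured DOCK4 pair with let-7i to the right, and every pair of EFS, CASS4 and DOCK3 lies left of the floors.

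NEDD9, the scaffold at the head of this path, was lower with let-7i in every probe set that measured it. Its brightest, 202149_at, had a signal of 2747 with let-7i and 5275 with the empty vector, a log2 ratio of -0.95 with a probe noise SD of 0.15, or 1.93-fold lower. The second, 202150_s_at, had 1261 with let-7i and 2883 with the empty vector, 2.29-fold lower, and was the 1 measured member probe set past 2-fold in that direction. Both of these bright readings lay more than 6 times the noise SD below 0. The 2 dimmer probe sets gave the same direction. Probe set 1569020_at had 261 with let-7i and 470 with the empty vector (log2 ratio -0.85), which is 3.25 times its noise SD of 0.26. Probe set 242861_at had 92.0 with let-7i, close to the floor, and 182 with the empty vector (log2 ratio -0.99), which is 2.92 times its noise SD of 0.34. The 4 ratios averaged -0.995 ± 0.145 (SD over 4 probe sets of the same RNA), so the probe sets differed from each other by far less than from 0. The fifth, 1560706_at, did not reach the floor on either array (10.8 with let-7i and 36.8 with the empty vector), and no ratio is given for it.

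Few genes were read as uniformly lower as NEDD9. Of 1081 genes with 4 or more measured probe sets, 6 (0.555%) had all of them at least 1.5-fold lower with let-7i, NEDD9 among the 6. By its brightest probe set NEDD9 ranked 156th from the lowest of 11140 measured genes. Because bright probe sets scatter less, the rank was also taken among the 4664 genes in the same class of signal, where 30 genes (0.643%, NEDD9 included) had a ratio as low. These ranks describe the 2 arrays and carry no test.

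Of the other CAS scaffolds, BCAR1 differed little and EFS and CASS4 could not be read. BCAR1, also known as p130Cas and the founding member of the family, had a signal of 598 with let-7i and 558 with the empty vector in 223116_at, a log2 ratio of 0.10 against a noise SD of 0.20. Its other probe set, 232442_at, had 160.1 with let-7i and 162.3 with the empty vector (log2 ratio -0.02). Both readings of BCAR1 thus lay within 1 noise SD of 0, and they differ in sign, as the measured probe sets of 49% of the 5807 genes with at least 2 of them do. EFS, a CAS protein that binds SRC family kinases, had signals of 38.3 with let-7i and 10.5 with the empty vector in its brighter probe set, and 2.18 with let-7i and 1.62 with the empty vector in the other. CASS4, the most divergent member of the family, had 55.8 with let-7i and 20.5 with the empty vector in its brighter probe set, and 6.98 with let-7i and 7.12 with the empty vector in the other. All of these lie under the floor, where a ratio of MAS5 signals cannot be read, so the level of EFS and CASS4 in either culture has an upper bound only.

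**Figure D2:**
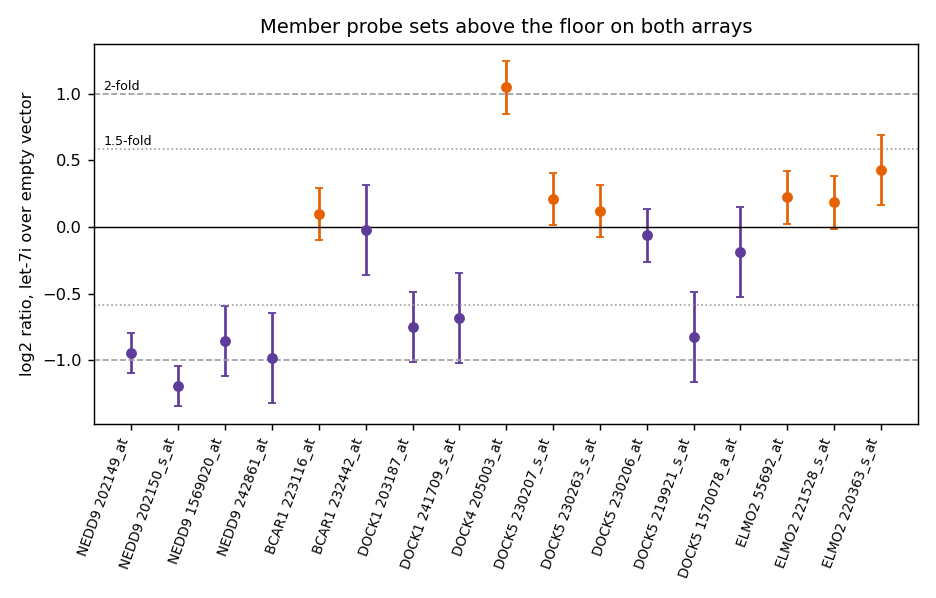
Log2 ratio (let-7i over empty vector) of the 17 member probe sets measured on both arrays, with bars of ±1 probe noise SD at their signal; dotted and dashed lines mark 1.5-fold and 2-fold. The 4 NEDD9 probe sets run from -1.20 to -0.85, both DOCK1 probe sets lie near -0.7, DOCK4 stands at 1.05, and the 5 DOCK5 probe sets spread from -0.82 to 0.21.

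Among the exchange factors, DOCK1 and DOCK4 went opposite ways. DOCK1, also called DOCK180, is the partner of CRK and ELMO that was first tied to CAS signalling. Its brightest probe set, 203187_at, had 369 with let-7i and 618 with the empty vector, a log2 ratio of -0.75 with a noise SD of 0.26, or 1.68-fold lower. The second, 241709_s_at, had 169.5 with let-7i and 271 with the empty vector, a log2 ratio of -0.68 with a noise SD of 0.34, or 1.604-fold lower. The 2 readings lay 2.84 and 2.02 times their noise SD below 0, a narrower margin than for the bright NEDD9 probe sets. Genes with 2 or more measured probe sets, all at least 1.5-fold lower, numbered 75 of 5807 (1.29%), DOCK1 and NEDD9 included. Among the 1846 genes in the class of signal that holds DOCK1, 73 (3.95%) had a ratio as low, so its difference is less unusual for its brightness than that of NEDD9. The 3 other DOCK1 probe sets were below the floor on both arrays, with 42.4, 45.3 and 5.95 with let-7i and 68.7, 48.8 and 6.96 with the empty vector.

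DOCK4, an exchange factor that acts on RAC1 and has also been tied to the GTPase RAP1, was higher with let-7i. Probe set 205003_at had 735 with let-7i and 354 with the empty vector, a log2 ratio of 1.05 with a noise SD of 0.20, or 2.07-fold higher. This was the largest difference of any measured member by its brightest probe set, and 84 of the 11140 measured genes had a higher ratio. In its class of signal, 23 of 2828 genes (0.813%) had a ratio as high. With an offset of 50 added to both signals in place of the floor the log2 ratio was 0.95, short of 2-fold. The reading rests on 1 probe set. The 3 others of DOCK4 were below the floor on both arrays, with 42.3, 27.3 and 16.3 with let-7i and 45.7, 43.1 and 5.10 with the empty vector, and they could not check it.

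DOCK3, an exchange factor known mostly from neurons, has 1 probe set, 213482_at, with a signal of 35.0 with let-7i and 8.06 with the empty vector. Both values lie under the floor, and no fold is given. Whether DOCK3 was lower with let-7i could not be read from this probe set. DOCK5, the closest relative of DOCK1, was read by 5 measured probe sets that did not point one way. The 3 brightest lay within 1.1 noise SDs of 0. Probe set 230207_s_at had 1203 with let-7i and 1035 with the empty vector (log2 ratio 0.21). Probe set 230263_s_at had 1006 with let-7i and 923 with the empty vector (log2 ratio 0.12). Probe set 230206_at had 812.5 with let-7i and 847 with the empty vector (log2 ratio -0.06). These 3 show DOCK5 at nearly equal levels in the 2 cultures, and the sign of its ratio depends on the probe sets taken. The 5 measured ratios averaged -0.15, or -0.12 when all genes were averaged over their probe sets and centred anew. One dim probe set stood apart, 219921_s_at, with 111 with let-7i and 196 with the empty vector. Its log2 ratio of -0.82 lay 2.44 times its noise SD of 0.34 below 0, further than the 2.02 of the dimmer DOCK1 reading. Probe set 1570078_a_at, also dim, had 125 with let-7i and 142 with the empty vector (log2 ratio -0.19). The 5 ratios of DOCK5 span 1.04 on the log2 scale, and 41 of 442 genes with 5 or more measured probe sets (9.28%) span as much. The 3 other DOCK5 probe sets did not reach the floor on either array, with 67.2, 38.1 and 3.39 with let-7i and 82.4, 35.7 and 2.67 with the empty vector. Which transcripts of DOCK5 the probe sets read was not analysed here.

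ELMO2, an ELMO partner of some DOCK proteins that act on RAC1, was slightly higher in all 3 measured probe sets. Its signals were 1199 with let-7i and 1025 with the empty vector in 55692_at, a log2 ratio of 0.22. In 221528_s_at they were 888 with let-7i and 779 with the empty vector (log2 ratio 0.18), and in 220363_s_at 388 with let-7i and 287 with the empty vector (log2 ratio 0.43). Each lay within 1.63 noise SDs of 0. Agreement in sign alone is common, since 412 of 2689 genes with 3 or more measured probe sets (15.3%) had all of them higher. The fourth probe set, 1554857_at, did not reach the floor on either array, with 12.9 with let-7i and 57.6 with the empty vector.

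**Figure D3:**
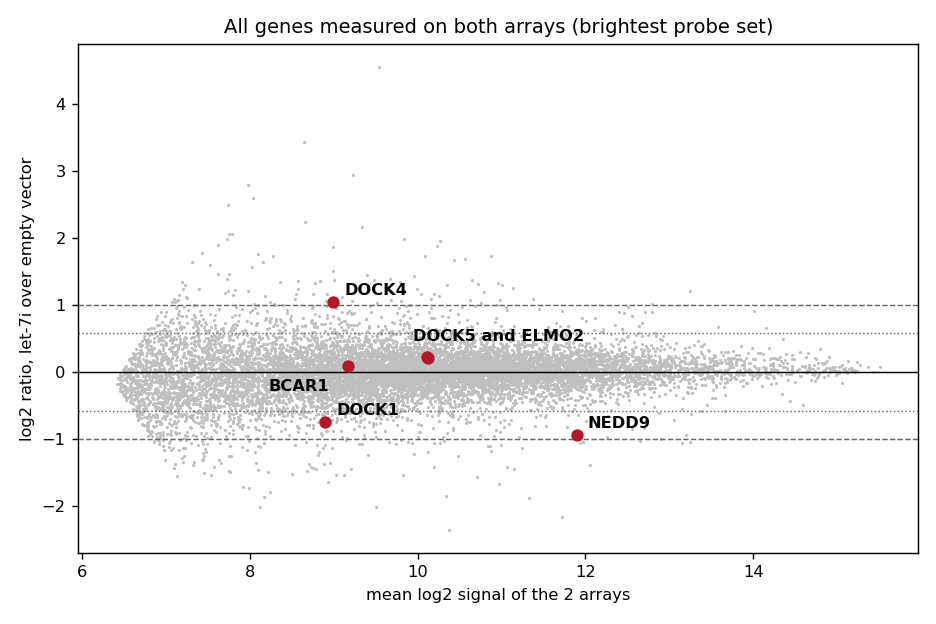
Log2 ratio (let-7i over empty vector) against mean log2 signal for the 11140 genes measured on both arrays (grey, brightest probe set of each gene), with the 6 measured members in red. NEDD9 (-0.95) and DOCK4 (1.05) lie far from most genes of like signal, with 0.643% and 0.813% of their signal classes as far in that direction. DOCK1 (-0.75) is less unusual for its signal (3.95%), and BCAR1, DOCK5 and ELMO2 lie among most genes.

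Most neighbours of these genes in the pathway that reached the floor differed by less than 1.5-fold in their brightest probe set, ABL2 and TIAM2 being the exceptions. Of 9 other DOCK and ELMO genes, 8 had a probe set of their own and 5 were above the floor, and all 5 were lower with let-7i, none by 1.5-fold, where 49.8% of all genes above the floor were lower. Their median log2 ratio was -0.31. In their brightest probe sets DOCK11, DOCK6 and DOCK9 lay 1.83, 1.36 and 1.55 noise SDs below 0, so the sign of each is uncertain. DOCK11, an exchange factor for CDC42, had 859 with let-7i and 1099 with the empty vector (log2 ratio -0.36) and was lower in both of its probe sets. DOCK6, which acts on RAC1 and CDC42, had 236 with let-7i and 301 with the empty vector (log2 ratio -0.36), but its 3 measured probe sets ranged up to 0.32. DOCK9, a CDC42 exchange factor, had 1002 with let-7i and 1235 with the empty vector (log2 ratio -0.31). Its dimmer measured probe sets gave -0.29 and -0.06, while 232874_at, under the floor with the empty vector, gave a bound of 0.20. ELMO1 and the blood cell factor DOCK2 were below the floor on both arrays.

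Among 20 genes whose products bind or modify CAS proteins, 19 reached the floor, and of those 16 were higher with let-7i and 3 lower, where 48.7% of all genes were higher. The median log2 ratio was 0.14, and 1 gene passed 1.5-fold. That median is below the noise SD of 0.15 in the brightest class, so the sign of a single gene with so small a ratio is uncertain. That gene was ABL2, a tyrosine kinase that acts on the cytoskeleton, with 1221 with let-7i and 749.5 with the empty vector, 1.62-fold higher, and with all 3 probe sets higher, from 0.38 to 0.79 on the log2 scale. BCAR3, an adaptor that binds BCAR1 and NEDD9, had 2597 with let-7i and 1859 with the empty vector (log2 ratio 0.48), and the kinase ABL1 had a log2 ratio of 0.40. Focal adhesion kinase, PTK2, which docks on the CAS proteins, had 2984 with let-7i and 3672 with the empty vector (log2 ratio -0.30). CRKL, the close relative of CRK, which itself was not analysed here, had 2322 with let-7i and 2094 with the empty vector (log2 ratio 0.15). PTK2 and CRKL were named after their values were seen.

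Of 13 other exchange factors for RAC1, 12 had a probe set of their own and 10 were above the floor. Of the 10, 6 were higher and 4 lower, where 48.7% of all genes above the floor were higher and 49.8% lower. Their median log2 ratio was 0.13. TIAM2, a neuronal relative of TIAM1, had 140 with let-7i and 333 with the empty vector in its brightest probe set, 2.38-fold lower, but its other measured probe set gave a log2 ratio of 0.25. PREX1, an exchange factor driven by G protein and phosphoinositide signals, was likewise split, with log2 ratios of 0.56 and -0.98, where -0.98 is a bound because that let-7i signal was under the floor. VAV3, which is switched on by tyrosine phosphorylation, was lower in all 3 probe sets, with 1719 with let-7i and 2394 with the empty vector in the brightest and log2 ratios from -0.84 to -0.48. At the end of the path, RAC1 had 12468 with let-7i and 11196 with the empty vector, with log2 ratios from 0.02 to 0.15 over 3 measured probe sets. RHOG, which activates the ELMO and DOCK pair, had a log2 ratio of 0.29, RAC2 of 0.21 and RAC3 of -0.33, each within 1.5 noise SDs of 0. A dimmer RAC2 probe set, 207419_s_at, gave -0.08. The array reads the amount of each message and not whether RAC1 is loaded with GTP.

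**Figure D4:**
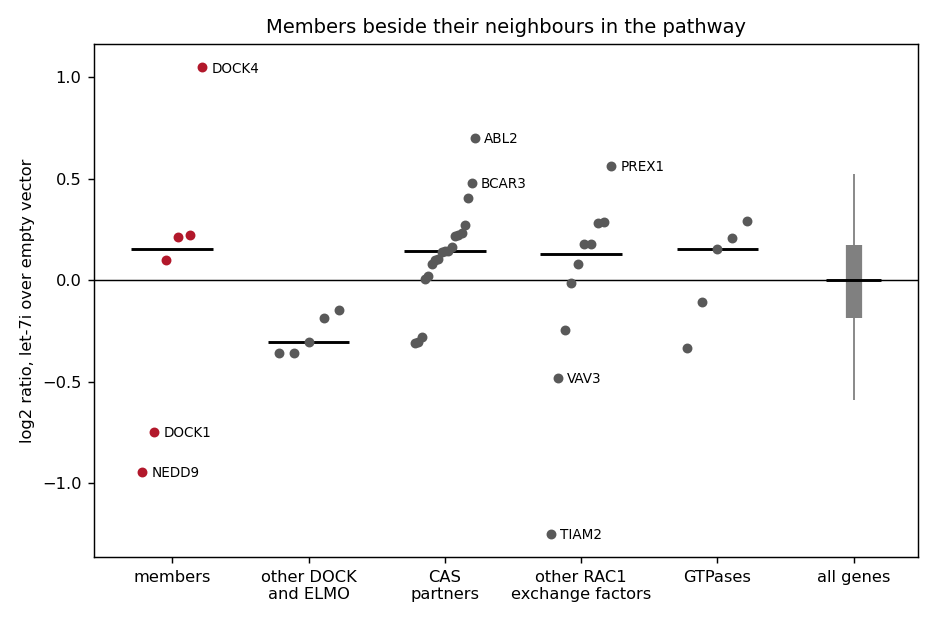
Log2 ratio (let-7i over empty vector) of each gene above the floor, by pathway group, with group medians as black lines; on the right, the median of all 11140 genes measured on both arrays, with a thick bar for the middle 50% (-0.19 to 0.17) and a thin line from the 5th to the 95th percentile (-0.59 to 0.52). NEDD9, DOCK1 and DOCK4 lie outside the thin line, as do ABL2, PREX1 and TIAM2 among the neighbours.

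The stretches before the start sites of NEDD9, DOCK1 and DOCK4 are shown because these are the 3 members that differed by at least 1.5-fold. Each is the 250 bases upstream of a RefSeq start (GRCh38.p14), written in the direction of the gene, with capitals at matches to CANNTG, the E-box that basic helix-loop-helix factors such as TWIST1 and zinc finger repressors such as ZEB1 can bind. NEDD9 has 3 start windows in the table, and the window at chr6:11382311-11382560, which overlaps most of the first one shown, is not printed.
NEDD9, chr6:11382349-11382598, minus strand: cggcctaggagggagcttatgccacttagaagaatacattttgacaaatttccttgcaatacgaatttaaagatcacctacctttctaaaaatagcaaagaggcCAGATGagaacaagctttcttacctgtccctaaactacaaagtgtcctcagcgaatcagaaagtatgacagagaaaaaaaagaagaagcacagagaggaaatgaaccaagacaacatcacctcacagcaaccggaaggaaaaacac
NEDD9, chr6:11232669-11232918, minus strand: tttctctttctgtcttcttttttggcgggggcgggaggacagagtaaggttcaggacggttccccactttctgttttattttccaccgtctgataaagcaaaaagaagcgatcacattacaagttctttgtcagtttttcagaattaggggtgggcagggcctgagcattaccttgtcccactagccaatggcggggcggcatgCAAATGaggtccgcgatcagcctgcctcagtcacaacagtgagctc
DOCK1, chr10:126905178-126905427, plus strand: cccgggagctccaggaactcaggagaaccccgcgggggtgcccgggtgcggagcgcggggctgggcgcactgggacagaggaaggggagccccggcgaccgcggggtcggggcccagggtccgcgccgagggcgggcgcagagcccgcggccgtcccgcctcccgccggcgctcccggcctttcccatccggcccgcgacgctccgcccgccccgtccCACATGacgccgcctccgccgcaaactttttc
DOCK4, chr7:112206400-112206649, minus strand: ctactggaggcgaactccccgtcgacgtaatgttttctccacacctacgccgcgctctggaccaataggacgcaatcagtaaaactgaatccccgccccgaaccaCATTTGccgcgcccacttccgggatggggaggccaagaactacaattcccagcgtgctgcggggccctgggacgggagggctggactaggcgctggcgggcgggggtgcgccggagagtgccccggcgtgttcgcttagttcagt
Each of the 4 stretches printed holds 1 match, namely CAGATG and CAAATG for NEDD9, CACATG for DOCK1 and CATTTG for DOCK4, while the overlapping NEDD9 window holds 2, CAGATG and CATATG. Both strands were searched, CANNTG reads the same on either strand, and 61.8% of the 35116 promoter windows of this length hold a match. A match is therefore common. CACCTG, the form preferred by ZEB1 and itself a case of CANNTG, is in none of the 4 on either strand and in 17.5% of all windows. The GC content was 40.4% and 50% in the NEDD9 stretches, 78.8% for DOCK1 and 63.6% for DOCK4, against a median of 58% over all windows. A match describes letters only, and no binding was measured.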

How the data were processed

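Total RNA of 2 OECM1 cultures, 1 per group, was labelled as biotinylated cRNA and read on arrays of 54675 probe sets (labelling per the labels' protocols). What the authors deposited is 1 intensity for each probe set and array, on a linear scale, from MAS5, as the submitters' processing notes say; neither version nor settings are named there. No detection calls come with the table. Since MAS5 takes off mismatch signal, dim values are noisy.

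Of the probe sets, 41097 carried 1 gene symbol in the platform annotation and were used, of which 41043 matched a RefSeq table by Entrez ID with no symbol changed; 1801 carried several symbols and 11777 were not listed. For each gene the probe set brightest by its mean log2 signal was used. Signals under the 50th percentile of an array were set to it, and log2 ratios were centred on their median over genes that both arrays measured, by 0.0036. Noise was the SD of the difference between a gene's 2 brightest measured probe sets, over the square root of 2, in 4 classes of signal. All members were named with every probe set, and of each neighbour list the up to 3 genes with the largest ratio, plus RAC1. The members, lists, thresholds and settings were chosen with earlier results of these data known. Tried beside this were quantile normalization, a lowess fit (fraction 0.3, 3 iterations) or nothing in place of the centring, a lower floor (25th percentile), a higher one (65th percentile), an offset of 50 in place of the floor, the mean of a gene's probe sets, and leaving out probe sets shared between transcripts. The procedure was tested on simulated data. The tools were Matplotlib 3.10.9, statsmodels 0.14.6, pandas 2.3.3, NumPy 2.4.6 and Python 3.11.15. The number of arrays limits the precision.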

Additional observations from a re-analysis of the deposited data

How the results depend on the processing

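NEDD9 and DOCK1 were the members at least 1.5-fold lower, and DOCK4 was at least 1.5-fold higher, in the main setting and in each of the 8 alternatives. The log2 ratio of NEDD9 ran from -0.98 to -0.93 over the alternatives, that of DOCK1 from -0.76 to -0.68 and that of DOCK4 from 0.95 to 1.08, the lowest being with an offset of 50, where the count of members at least 2-fold higher was 0 in place of 1. Without centring, with either other floor or without shared probe sets, these 3 genes kept the same probe sets and signals. Only the centring could move their ratios in those settings, so they are no separate check. When the floor was the 25th percentile, 4 members passed 1.5-fold upward and 2 passed 2-fold, because CASS4 (a bound of 1.34), EFS (0.80) and DOCK3 (0.67) then had signals above the floor with let-7i and below it with the empty vector, and a gene that passes only on the array where it is high has its direction fixed by the floor; over all genes that floor called 14.2% lower and 9.45% higher at 1.5-fold, and a floor at the 65th percentile 3.57% and 2.94%. DOCK5 was -0.12 with the mean of its probe sets and -0.05 without probe sets shared between transcripts, against 0.21. Over all genes the split of 5.93% lower and 4.18% higher at 1.5-fold became 4.63% and 5.2% with lowess centring and 4.62% and 5.11% with quantile normalization. The median of the members ran from -0.03 to 0.24. No paired analysis was possible because each group has 1 array. Signals near the floor limit what can be said of EFS, CASS4 and DOCK3.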
